A study of Mus musculus with 2 samples.

Results

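The genomic neighbourhoods of 7 core pluripotency genes, Pou5f1, Nanog, Dppa3, Sox2, Klf4, Esrrb and Prdm14, were examined in the enrichment peaks of E14 mouse embryonic stem cells. The members were all peaks that touched any of 6 preset mm9 intervals, 950 kb in sum, with Nanog and Dppa3 in a common interval. The intervals were chr17:35590001-35700000 for Pou5f1, chr6:122530001-122720000 for Nanog and Dppa3, chr3:34490001-34610000 for Sox2, chr4:55480001-55600000 for Klf4, chr12:87650001-87920000 for Esrrb and chr1:13050001-13190000 for Prdm14, and the place of each gene in its interval was not checked against an mm9 annotation. The peaks numbered 37 of 55292 peaks in the control library (shGFP, cells transfected with a short hairpin RNA against GFP) and 36 of 45579 peaks in the library labelled shDnmt3L (a hairpin against Dnmt3L). Both cultures were of the same line and each gave 1 library, which leaves the values without a replicate error and the conditions without a test. Read depth is unknown. The sample names and the design text point to 5-methylcytosine (MeDIP), whereas the protocol names a kit for 5-hydroxymethylcytosine. The mark behind the peaks is therefore left unnamed. The labels give neither the hairpin's sequence nor whether the cells were a clone or a pool, and the level of Dnmt3L was not analysed here. Genomic DNA carries no expression of marker genes, so the labelled cell type was not checked.

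Embryonic stem cells keep their identity through a small circuit of transcription factors that bind one another's regulatory regions. Dnmt3L has no catalytic activity of its own and assists the de novo DNA methyltransferases, which place 5-methylcytosine on CpG dinucleotides. Tet enzymes, abundant in these cells, oxidise that mark to 5-hydroxymethylcytosine. Several pluripotency genes, Pou5f1 and Nanog among them, gain promoter methylation when cells differentiate.

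The CpG content of the promoters was described first, because CpG is the main substrate of both marks. In the RefSeq promoter table (GRCm38.p6), 5 of the 7 genes matched, with 8 start sites. The 250 bases before a start held 32 CpG at Klf4 and 27 at Sox2, as many as or more than in 95.97% and 92.4% of the 32851 windows in the table. They held 8 at the first start of Pou5f1, 6 at the first start of Esrrb and 3 at the first start of Nanog, against a median of 6 over the table. The second starts of Pou5f1, Esrrb and Nanog held 6, 3 and 2. The CG dinucleotide, which reads the same on both strands, was present in 92.1% of all windows. The 4 windows below show this contrast, with CG in capitals.

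Klf4, GRCm38.p6 chr4:55532476-55532725, minus strand: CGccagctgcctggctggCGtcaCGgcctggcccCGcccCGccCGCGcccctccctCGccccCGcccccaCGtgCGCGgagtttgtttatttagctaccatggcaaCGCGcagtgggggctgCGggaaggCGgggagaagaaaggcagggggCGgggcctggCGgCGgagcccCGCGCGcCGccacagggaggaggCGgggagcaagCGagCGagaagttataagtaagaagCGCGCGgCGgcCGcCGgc
Sox2, GRCm38.p6 chr3:34649745-34649994, plus strand: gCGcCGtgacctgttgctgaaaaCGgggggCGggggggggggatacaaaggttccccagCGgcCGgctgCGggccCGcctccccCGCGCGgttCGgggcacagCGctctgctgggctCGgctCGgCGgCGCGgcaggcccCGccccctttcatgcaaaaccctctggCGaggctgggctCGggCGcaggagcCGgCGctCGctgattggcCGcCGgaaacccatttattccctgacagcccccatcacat
Pou5f1, GRCm38.p6 chr17:35505782-35506031, plus strand: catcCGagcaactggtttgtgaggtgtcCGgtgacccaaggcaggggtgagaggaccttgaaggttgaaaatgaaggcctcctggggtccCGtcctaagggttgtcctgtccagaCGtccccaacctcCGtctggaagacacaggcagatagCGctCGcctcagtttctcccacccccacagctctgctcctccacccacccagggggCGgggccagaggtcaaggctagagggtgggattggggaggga
Nanog, GRCm38.p6 chr6:122707239-122707488, plus strand: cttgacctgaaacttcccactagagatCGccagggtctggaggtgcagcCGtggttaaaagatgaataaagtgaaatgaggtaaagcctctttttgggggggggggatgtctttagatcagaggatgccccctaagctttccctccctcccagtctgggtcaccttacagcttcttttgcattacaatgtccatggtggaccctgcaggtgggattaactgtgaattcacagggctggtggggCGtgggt

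The build of these windows differs from that of the peaks, mm9, so they cannot be set against the peak positions below. For the same reason no peak was assigned to a promoter, exon or enhancer. An interval can also hold neighbours of its gene, and in the gene order of the RefSeq table the nearest protein-coding neighbours were H2-Q10 and Tcf19 for Pou5f1, Gdf3 before Dppa3 and Slc2a3 after Nanog, and Dnajc19 and Atp11b for Sox2. They were Rad23b and Actl7b for Klf4, Gpatch2l and Vash1 for Esrrb, and Slco5a1 and Ncoa2 for Prdm14.

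The number of peaks around the pluripotency genes was nearly the same in both libraries, while the length under peaks was greater in shDnmt3L. The 37 shGFP peaks (exact Poisson 95% interval 26.1 to 51.0) covered 78.97 kb, or 8.31% of the intervals. The 36 shDnmt3L peaks (25.2 to 49.8) covered 98.6 kb, or 10.4%. In shDnmt3L relative to shGFP, peak number was 0.973 times as high (exact conditional 95% interval 0.598 to 1.58). The whole shDnmt3L list was shorter, with 45579 peaks against 55292 in shGFP. Covered length was 1.25 times as high, against 1.05 for the whole lists. The 95% intervals given for counts, for their ratio and, below, for shares cover counting error only. Without the Esrrb interval, which held 37.8% of the shGFP and 41.7% of the shDnmt3L members, the ratio of covered length was 1.09 (51.9 over 47.4 kb). All 73 member peaks lay wholly inside their intervals. Their median width was 1978 bp in shGFP and 2325 bp in shDnmt3L, near the 1998 and 2376 bp of the whole lists. Below, a peak and its partner are peaks of the 2 lists that overlap by 1 bp or more, and they form a pair where neither overlaps a further peak.

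**Figure D1:**
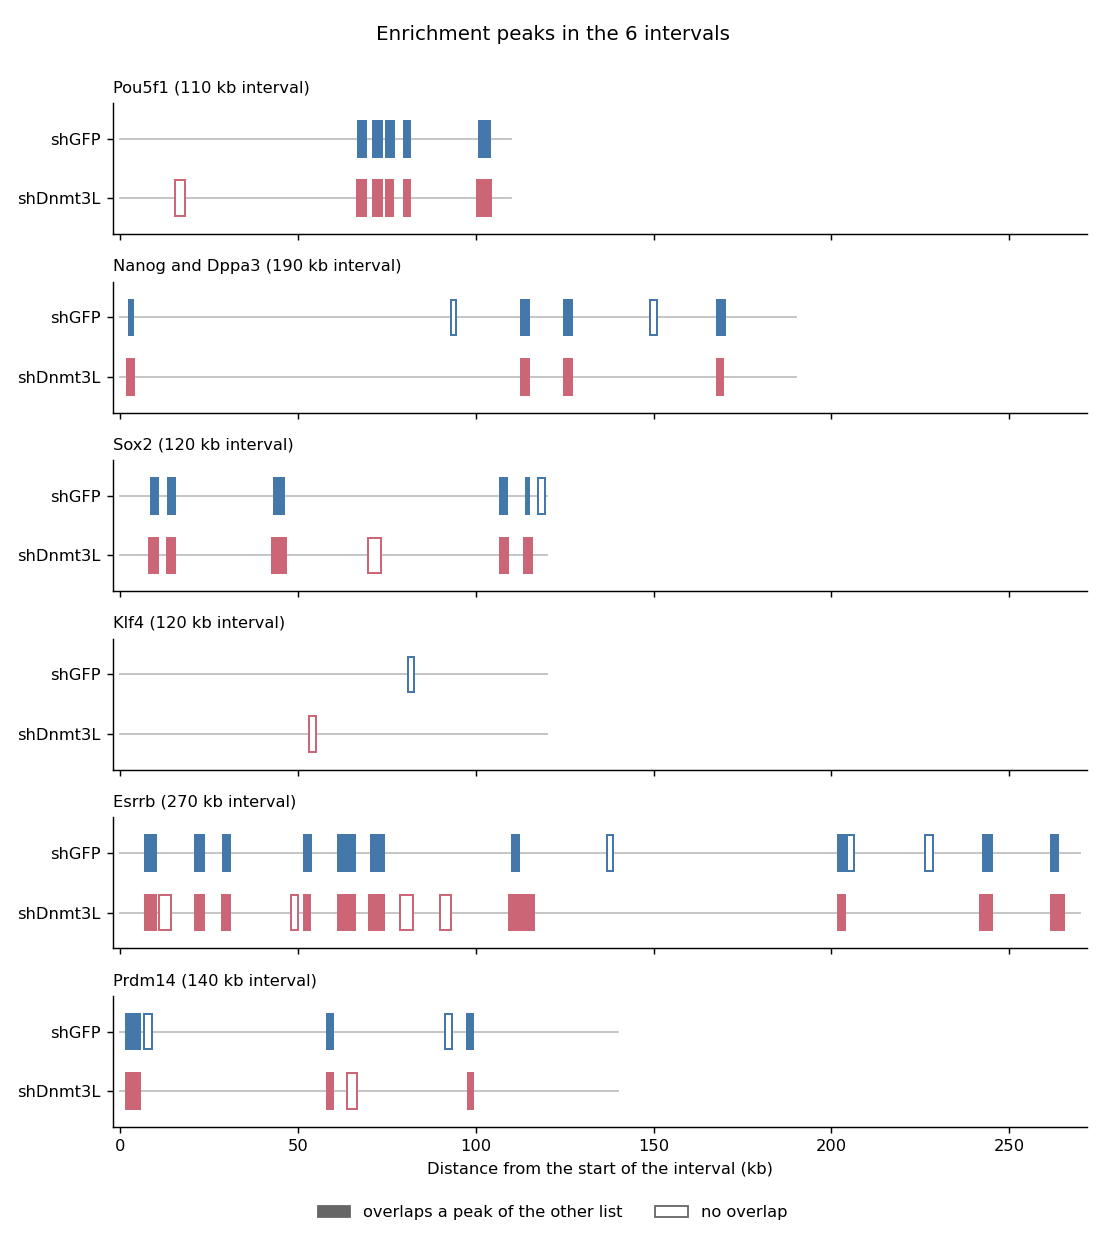
Positions and widths of all 73 peaks along the 6 intervals, as distance from the start of each interval in kb, with shGFP above and shDnmt3L below. Filled boxes overlap a peak of the other list and open boxes do not. Esrrb holds 14 and 15 peaks, and Klf4 holds 1 peak in each list, at different places.

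Peak density ranged more widely over the 6 intervals than between the libraries within any interval. Not every interval stood apart, since Esrrb, Sox2 and Pou5f1 lay close together. Esrrb had 5.19 peaks per 100 kb in shGFP and 5.56 in shDnmt3L, Sox2 had 5.00 in both, and Pou5f1 had 4.55 and 5.45. Prdm14 had 3.57 and 2.86, Nanog and Dppa3 had 3.16 and 2.11, and Klf4 had 0.833 in both. The mean over all 25720 tiles of 100 kb on the autosomes and the X chromosome was 2.19 in shGFP and 1.82 in shDnmt3L. More peaks in shDnmt3L than in shGFP were found in 2 of the 6 intervals, Pou5f1 and Esrrb, against 14% of the tiles with a peak in either list. More covered length in shDnmt3L was found in 4 of 6, against 56.9% of tiles with peaks in both. Of genome tiles as long as each interval and with peaks in both lists, a share had a lower ratio of covered length. It was 88.1% for Esrrb, 86.2% for Sox2, 79.3% for Pou5f1, 63.5% for Klf4, 31.5% for Prdm14 and 15.7% for Nanog and Dppa3. In the full lists none of the 6 reached a covered length 1.5 times higher or lower, though Esrrb and Sox2 were close at 1.48. Of the 100 kb tiles, 13.3% were higher and 13.7% lower by that fold. The shares of 14%, 56.9%, 13.3% and 13.7% are of 100 kb tiles, shorter than the intervals of 110 to 270 kb. They are thus not matched in length. Which intervals passed 1.5 times depended on the setting. Scores of the 2 lists may not be on 1 scale, since read depth is unknown, so a cutoff of 100 need not pick alike peaks. With the shGFP list shortened by score to the length of the shDnmt3L list, Esrrb was 1.67 times higher in shDnmt3L (46.7 over 27.98 kb). Among peaks scoring 100 or more, Esrrb was 1.53 and Prdm14 1.78 times higher, Nanog and Dppa3 were at a ratio of 0.483 (2.085 over 4.31 kb), and Klf4 had no shDnmt3L peak. The tile shares above hold for the full lists alone. The ratios at these other settings thus have no genome share beside them, and whether they are unusual was not tested.

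**Figure D2:**
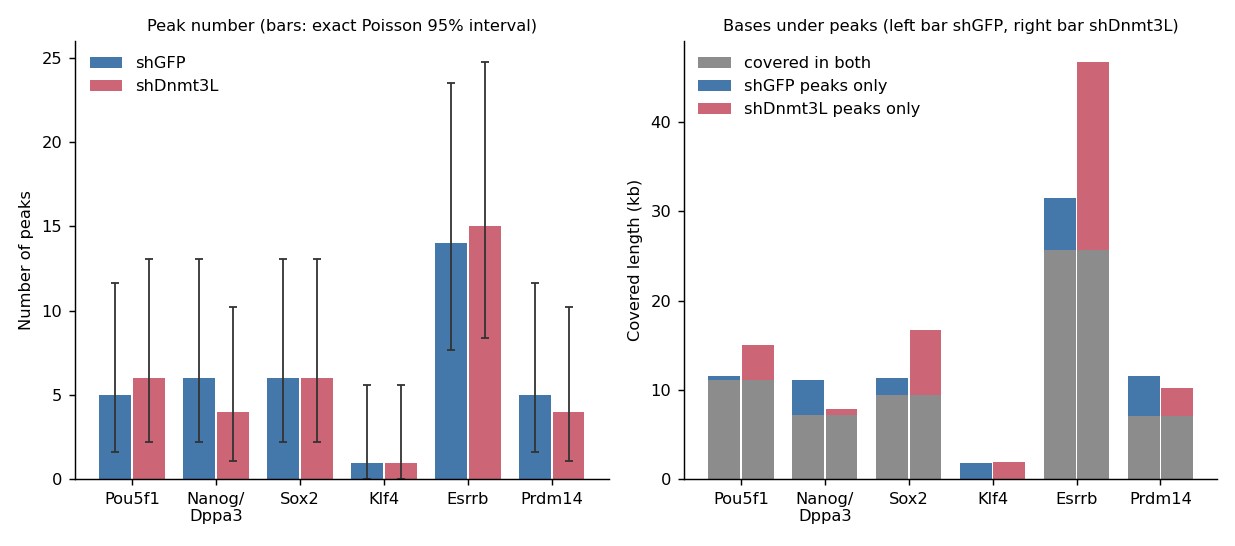
Left, number of peaks per interval in each library, with exact Poisson 95% intervals. Right, covered length in kb, split into bases under peaks of both lists and of 1 list. Esrrb and Sox2 show the largest stretches under shDnmt3L peaks only, 20.96 and 7.29 kb.

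Pou5f1, which encodes the POU-domain factor Oct4 that is required for pluripotency, had 5 peaks in shGFP and 6 in shDnmt3L on chromosome 17. All 5 shGFP peaks had a partner, and 96.9% of the bases they covered also lay under shDnmt3L peaks. A row of 4 paired peaks ran from 35656659 to 35671404, and a stronger pair followed at 35690865 to 35693984 in shGFP and 35690242 to 35694304 in shDnmt3L. That last pair was the highest-scoring of the interval in both lists, at percentiles 79.5 and 62.7 of the scores of their own lists, and was 3120 and 4063 bp wide. Across the other 4 pairs the width difference, shDnmt3L minus shGFP, lay between -125 bp, at the pair beginning at 35664850 in shGFP, and 99 bp. The sixth shDnmt3L peak, from 35605319 to 35608047, was 2729 bp wide with a score of 119.28 at percentile 59.98, and lay 37286 bp from any shGFP peak. It was the highest-scoring and the most isolated of all 8 shDnmt3L members without a partner. This peak made up 2.73 kb of the 3.55 kb by which covered length was higher in shDnmt3L (15.1 against 11.5 kb), and the paired peaks made up 0.824 kb. Among peaks scoring 100 or more in either list the order turned, with 4 peaks in shGFP and 3 in shDnmt3L and a log2 ratio of covered length of -0.20.

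The interval of Nanog, a homeodomain factor that stabilises self-renewal, and Dppa3 (Stella), a maternal and germline protein that guards methylated DNA from oxidation, showed the opposite order. On chromosome 6 it held 6 shGFP peaks over 11.2 kb and 4 shDnmt3L peaks over 7.82 kb, a covered length ratio of 0.700. The difference came from 2 shGFP peaks with no partner, which summed to 3.39 kb. They lay from 122623017 to 122624265 (1249 bp, score 51.19) and from 122678905 to 122681046 (2142 bp, score 63.76), at percentiles 2.51 and 21.95 of the shGFP list. With the shGFP list shortened by score to the length of the shDnmt3L list, the first of these and the paired peak at 122532327 (score 56.99) dropped out and the second stayed. The peak numbers were then equal at 4, with a log2 ratio of covered length of -0.15. The 4 pairs summed to a width difference of 37 bp. The pair from 122642601 to 122644892 had the same start and end base in both lists, which 3.75% of all one-to-one pairs of the genome had. The strongest pair, from 122654892 to 122656912 in shGFP, was 2021 and 2085 bp wide and lay at percentiles 89.2 and 82.9. The pair at 122697846 had a common start and was 2239 bp in shGFP and 1617 bp in shDnmt3L, the greatest narrowing of all 28 member pairs. The first pair, from 122532327 in shGFP and 122532003 in shDnmt3L, was 1233 and 1828 bp wide. The longest stretch with no peak in either list ran for 89.2 kb, from 122533831 to 122623016.

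Around Sox2, the HMG-box partner of Oct4, peak number was 6 in each library. All 5 pairs were wider in shDnmt3L, as were 81.7% of all one-to-one pairs of the genome. Covered length was 11.4 kb in shGFP and 16.8 kb in shDnmt3L, a ratio of 1.48, and 86.2% of genome tiles of the same length with peaks in both lists had a lower ratio. The 5 pairs on chromosome 3 had shGFP widths of 2014, 1901, 2684, 2000 and 867 bp. In the same order, the shDnmt3L widths were 2524, 2272, 3989, 2279 and 2202 bp. The fifth pair, from 34604084 to 34604950 in shGFP and 34603514 to 34605715 in shDnmt3L, was thus 2.54 times as wide in shDnmt3L. Its shGFP peak was the narrowest of all members. The third pair, at 34533288 to 34535971 and 34532626 to 34536614, gained 662 bp at its start and 643 bp at its end. The first pair was the highest-scoring in both lists, with scores of 253.4 and 180.57 at percentiles 87.6 and 76.98. Between the third pair and the pair at 34596883, a stretch of 60.9 kb without a shGFP peak held a shDnmt3L peak of 3491 bp, from 34559740 to 34563230, with a score of 96.69. The single shGFP peak without a partner, from 34607588 to 34609481 (score 71.9), ended the interval and lay 1872 bp from the nearest shDnmt3L peak. Paired peaks made up 3.80 kb of the 5.40 kb difference. Among peaks scoring 100 or more the log2 ratio of covered length was 0.03, against 0.56 in the full lists.

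Klf4, the Kruppel-like factor of the reprogramming set, lay in the sparsest interval, with 1 peak in each library and no overlap between them. The shGFP peak on chromosome 4, from 55560898 to 55562685, was 1788 bp wide with a score of 103.82, at percentile 54.3. The shDnmt3L peak, from 55533088 to 55535076, was 1989 bp wide with a score of 80.61, at percentile 37.2. They lay 25821 bp apart. Klf4 had the most CpG in its promoter window of the 5 matched genes and the fewest peaks in its interval, but Sox2, next in CpG, had 6 in each list. Of all genome tiles as long as this interval, 54.3% held as few peaks in shGFP and 59.8% in shDnmt3L, so the sparse interval was near the middle of the genome. With these counts, a difference between the libraries was not detectable.

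Esrrb, an orphan nuclear receptor and a direct target of Nanog, had the most peaks and the greatest difference in covered length. On chromosome 12 its 270 kb interval held 14 shGFP peaks over 31.5 kb and 15 shDnmt3L peaks over 46.7 kb, a ratio of 1.48. Of genome tiles of that length, 87.9% were less covered in shGFP and 93.6% in shDnmt3L, and 88.1% of those with peaks in both had a lower ratio. Of its 11 pairs, 10 were wider in shDnmt3L, against 81.7% of all one-to-one pairs of the genome. The 11 pairs made up 8.81 kb of the difference of 15.2 kb. The rest was 11.9 kb under shDnmt3L peaks without a partner, less 5.59 kb under shGFP peaks without one.

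The widest member of all was a shDnmt3L peak in the Esrrb interval, from 87759439 to 87766298. It was 6860 bp wide with a score of 507.5, rank 1552 of its list and percentile 96.6. Its shGFP partner, from 87760272 to 87762249, was 1978 bp wide with a score of 134.33, at percentile 66.96. The shDnmt3L peak was 3.47 times as wide, and 4049 of the 4882 extra bases lay beyond the end of the shGFP peak. It was the highest-scoring peak of the interval in shDnmt3L. In shGFP that place was held by the peak from 87670961 to 87673437 (2477 bp, score 370.17), whose shDnmt3L partner was 2691 bp wide with a score of 287.99. Without the widest pair, the covered length ratio of the Esrrb interval was 1.35.

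The widest shGFP peak of the interval and of all shGFP members, from 87711344 to 87715979 (4636 bp, score 241.99), had a shDnmt3L partner of 4728 bp. The pair from 87892507 to 87895202 in shGFP ended on the same base in shDnmt3L and began 762 bp further out, with widths of 2696 and 3458 bp. The last pair, from 87911830 to 87913793 in shGFP, was 1964 bp wide and in shDnmt3L began 32 bp further out and ended 1521 bp further out, at 87915314. Between 87788497 and 87851737, a stretch of 63.2 kb had no peak in either list. The shGFP peaks with no partner were 1626, 1912 and 2054 bp wide, at 87786871, 87854475 and 87876385, with scores of 54.17, 53.43 and 63.69. They lay 20572, 719 and 13306 bp from the nearest shDnmt3L peak. All 3 lay in the second part of the interval, after the widest pair. The 4 shDnmt3L peaks with no partner all lay before it, beginning at 87660834, 87697903, 87728748 and 87739997, with widths of 3315, 2118, 3556 and 2949 bp. Their scores were 101.84, 77.23, 75.35 and 93.17, and they lay 847, 1572, 4684 and 15933 bp from the nearest shGFP peak. The only narrower pair began at 87701593 in shGFP and differed by -132 bp.

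Prdm14, a PR-domain protein that restrains de novo methyltransferase genes in naive cells, had 5 shGFP and 4 shDnmt3L peaks on chromosome 1. They covered 11.6 and 10.2 kb, a ratio of 0.883. The strongest pair lay at the edge of the interval, from 13051532 to 13055449 in shGFP and 13051500 to 13055633 in shDnmt3L, with widths of 3918 and 4134 bp at percentiles 93.0 and 90.6. The other 2 pairs, at 13108196 in both lists and at 13147388 and 13147696, differed by -11 and -164 bp (shDnmt3L minus shGFP). The shGFP peaks from 13056720 to 13059040 (2321 bp, score 76.7) and from 13141256 to 13143158 (1903 bp, score 62.38) had no partner. They lay 1086 and 4537 bp from the nearest shDnmt3L peak. In shDnmt3L the peak from 13113833 to 13116654 (2822 bp, score 100.27) had no partner, and lay 3915 bp from the nearest shGFP peak. The pairs together differed by 41 bp, so the unpaired peaks made up nearly all of the difference in this interval. Among peaks scoring 100 or more the order turned, with 1 peak in shGFP and 2 in shDnmt3L and a log2 ratio of covered length of 0.83.

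Most members were common to the libraries. Of the 37 shGFP peaks, 28 had a partner and were called shared, or 75.7% (Wilson 95% interval 59.9 to 86.6%), against 74.5% of the whole list. Of the 36 shDnmt3L peaks, 28 were shared, or 77.8% (61.9 to 88.3%), against 87.4% of the whole list. Unshared were thus 24.3% of shGFP and 22.2% of shDnmt3L members, against 25.5% and 12.6% of the lists. The Wilson intervals treat the peaks as independent, whereas 15 of the 36 shDnmt3L peaks lay in the Esrrb interval. That the shDnmt3L Wilson interval includes 87.4% therefore does not decide whether sharing differed from the whole list. The 28 shared peaks formed 28 one-to-one pairs. The 9 unshared shGFP peaks were 1249 to 2321 bp wide (median 1903), and their scores lay between percentiles 2.51 and 54.3 (median 21.8). The 8 unshared shDnmt3L peaks were 1989 to 3556 bp wide (median 2886), between percentiles 32.6 and 59.98 (median 47.5). The whole-list medians for unshared peaks were 1605 bp and percentile 17.8 in shGFP, and 2474 bp and percentile 32.2 in shDnmt3L. All of the 8 unshared shDnmt3L members except the Klf4 peak and the 2118 bp Esrrb peak were wider than the widest unshared shGFP member.

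Of the 28 pairs, 21 were wider in shDnmt3L (75%, Wilson 95% interval 56.6 to 87.3%), 6 were narrower and 1 was equal, against 81.7% wider among all 37952 pairs of the genome. The share of wider pairs around these genes was therefore near the background. The median difference was 200 bp (quartiles 12 and 598), against 145 bp (32 and 402) over all pairs. More than 64 bp of extra width was found in 18 pairs, or 64.3%, against 62.1%. At least doubled width was found in 2 pairs, the fifth of Sox2 and the widest of Esrrb, against 2.94% of all pairs. The start lay exactly 32 bp further out in 5 pairs and on the same base in 5, and the end did so in 6 and 3. Among all 37952 pairs, the start did so in 7850 and 7217, and the end in 7676 and 6877. By gene, all 5 Sox2 pairs and 10 of 11 Esrrb pairs were wider, as were 3 of 5 at Pou5f1, 2 of 4 at Nanog and Dppa3 and 1 of 3 at Prdm14. The median differences were 510, 214, 16, 32 and -11 bp in that order.

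**Figure D3:**
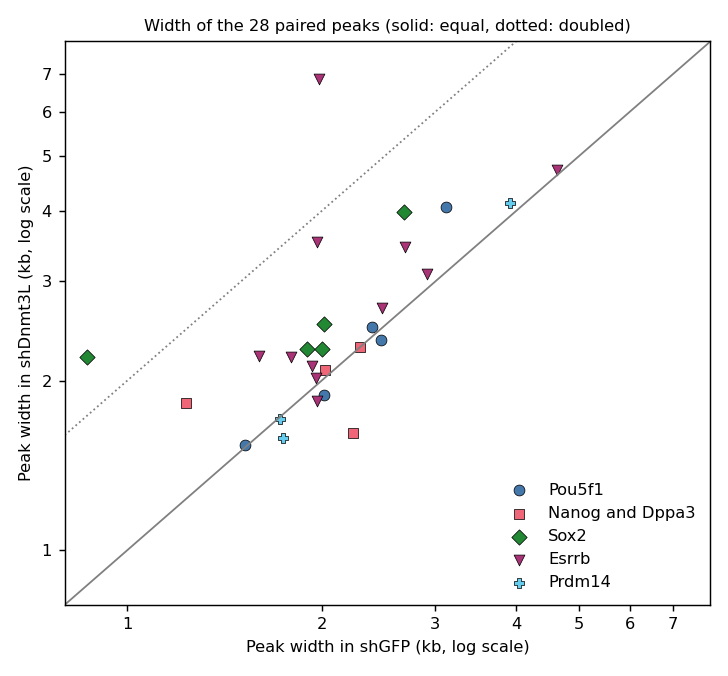
Width of each of the 28 paired peaks in shGFP and in shDnmt3L, in kb on log scales, marked by interval. The solid line is equal width and the dotted line doubled width. All Sox2 points lie above the solid line, and 1 Sox2 and 1 Esrrb point lie above the dotted line.

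The score ranks of the members were ordinary for their lists. Scores are those of the authors' peak caller, and a percentile is the share of peaks in the same list with a lower score. The median percentile was 47.2 in shGFP and 46.3 in shDnmt3L, and scores of 100 or more were held by 18 of 37 (48.6%) and 15 of 36 (41.7%), against 48% and 49.5% of the lists. For shared peaks alone the median percentile was 57.9 in shGFP and 45.8 in shDnmt3L. Shared peaks of the whole lists were likewise lower in shDnmt3L, at 52.2 against 62.5 in shGFP. At or above percentile 90 lay 2 shGFP peaks, 1 each at Esrrb and Prdm14, and 3 shDnmt3L peaks, 2 at Esrrb and 1 at Prdm14, against 10% of each list. By interval, the median percentile in shGFP was 64.6 at Sox2, 59.98 at Pou5f1, 54.3 at Klf4, 42.3 at Esrrb, 31.1 at Prdm14 and 26.4 at Nanog and Dppa3. In shDnmt3L it was 55.8 at Sox2, 52.9 at Pou5f1, 45.3 at Esrrb, 43.8 at Prdm14, 38.1 at Nanog and Dppa3 and 37.2 at Klf4. Sox2 and Pou5f1 thus led in both lists. These positions come from lists of different lengths, so no change was read from them. The highest-scoring peak was the same pair in both lists in 4 of the 6 intervals, and differed at Esrrb and at Klf4.

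**Figure D4:**
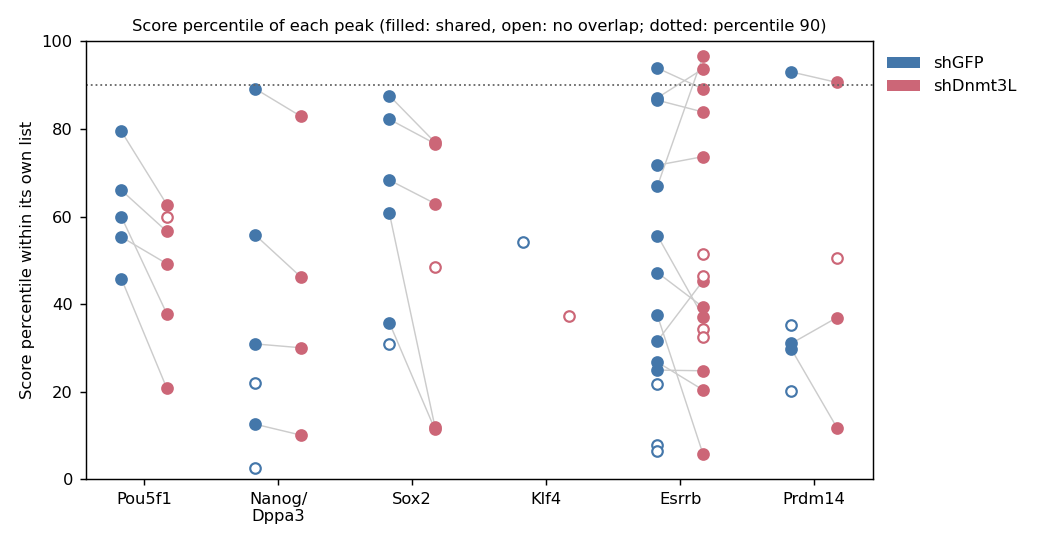
Percentile of each peak's score within its own list, by interval, for shGFP and shDnmt3L. Filled points are shared, open points are not, grey lines join pairs and the dotted line marks percentile 90. Unshared shGFP points lie at or below percentile 54.3, and Esrrb and Prdm14 alone have points above the dotted line.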

How the data were processed

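One library per group was compared, shGFP and shDnmt3L, with no replicate. Each deposited file was a peak list with a position and a score per peak, the score being as the authors deposited it. Its lowest values, 50.01 and 50.00, would match a p of 1e-05 on the scale MACS uses, judged from the values alone. Named in the submitters' processing notes, without roles, are MACS 1.4.1, Bowtie 0.12.7, CASAVA 1.8 and the build mm9. For depth, input control and duplicate filter, nothing is given in the sources used here, and peak number and width can move with each. Coordinates count the first base as 1.

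Calculations used scipy 1.17.1, pandas 2.3.3 and numpy 2.4.6 under Python 3.11.15, with matplotlib 3.10.9 for plots. Covered length is the bases under peaks inside an interval. A one-to-one pair is 2 peaks that overlap each other and no further peak. Tiles ran over the autosomes and X between the first and last peak. Overlaps and pair widths were tested on simulated data. Every peak of the intervals was counted. Those named are, per interval and list, the highest-scoring and widest, all without overlap, and the pairs of largest and smallest width difference; the further pairs described were chosen after their values were seen. The members, intervals and lists were chosen with earlier results of these data known. Other pluripotency genes were not analysed here, since no mm9 annotation was used.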

Additional observations from a re-analysis of the deposited data

How the results depend on the processing

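Of 61 alternative values computed for the 6 intervals together, 54 stayed in the range set for them, 6 moved and 1 reversed. Part of those that stayed could not have moved. All 73 peaks lay wholly inside their intervals, so selecting peaks by midpoint left every value as it was. Unshared peaks lay at least 719 bp from the other list, so accepting a partner within 500 bp left the shared shares as they were. The range was the counting interval for shares and for the ratio of peak numbers, a binomial interval for medians and a factor of 1.5 for counts. The ratio of covered length had no range of its own. It was held to the range of the peak-number ratio, so its staying in range does not show how stable covered length was. The difference in median width was checked for its sign alone. The reversal was in the log2 ratio of peak numbers, -0.04 as reported and 0.13 once the lists had equal length. At scores of 100 or more, 18 shGFP and 15 shDnmt3L peaks were left. The median shGFP width was then 2157 bp, against 1978 bp in the full list, and 91.7% of pairs were wider in shDnmt3L. That share rests on few pairs and has no genome share at the same cutoff. The 81.7% given for all pairs is of the full lists, so the 2 shares are not comparable. Without the Esrrb interval, an alternative chosen after seeing the data, 23 and 21 peaks were left. These counts fall by construction. For single intervals, 24 of 28 values stayed in range and 4 reversed, all at scores of 100 or more. At Pou5f1 the log2 ratio went from 0.26 to -0.42 for peak number and from 0.39 to -0.20 for covered length. At Prdm14 it went from -0.32 to 1 and from -0.18 to 0.83. Klf4 gave no ratio there, since its shDnmt3L peak scored below 100. With few peaks an interval, the ranges were wide, so staying inside them does not show stability. The unknown read depth limits which weak peaks could be found, and a score of 100 may not mean the same in both lists. No paired analysis was possible because both groups hold a single library.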
